A study of Mus musculus with 10 samples.

Results

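Cd14 and 9 genes that work beside it in the recognition of bacteria were followed across bone marrow neutrophils of the mouse with and without the bacterial-type peptide fMLP and with and without the gene Lcn2. The 10 genes were chosen by name, and each is measured by 1 probe set that the array annotation assigns to that gene alone. They are 10 of 19938 genes with such a probe set, on arrays of 35556 probe sets. The question was whether Cd14 rises alone or with its partners.

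Pattern recognition receptors bind molecules that bacteria carry and the host lacks. CD14 is a surface protein without a signalling tail that passes lipopolysaccharide to TLR4 and its partner MD-2 (encoded by Ly96), and that also helps TLR2 with bacterial lipoproteins. The Toll-like receptors signal through the adaptor MyD88 to NF-kB and the MAP kinases, IRAK3 damps that signal, and NOD1 and NOD2 sense fragments of the bacterial cell wall in the cytosol. fMLP is not a ligand of these receptors. It acts through formyl peptide receptors, which attract and activate neutrophils.

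The groups were Lcn2 knockout cells after fMLP (2 arrays), wild type cells after fMLP (2 arrays), unstimulated Lcn2 knockout cells (3 arrays) and unstimulated wild type cells (3 arrays). Lcn2 encodes lipocalin 2, a granule protein that binds bacterial iron carriers. All cells came from C57bl/6 mice that the labels give as female and 10 weeks old, were enriched on a Percoll density gradient, and in the fMLP groups were treated with 10 micromolar for 20 minutes at 37 degrees Celsius. How the knockout was made, whether animals were pooled, whether replicates were separate animals, and whether unstimulated cells were also kept at 37 degrees are not given in the labels, so p-values measure only the spread between these samples.

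The arrays fell into 2 sets by the spread of all their values. The interquartile range was 2.47 to 2.59 on the log2 scale on 6 arrays (set 2: the 4 fMLP arrays and unstimulated replicate 3 of both genotypes) and 1.64 to 1.68 on the other 4 (set 1: unstimulated replicates 1 and 2 of both genotypes). No fMLP array lies in set 1, so the fit held array set as a term, and the fMLP difference averaged over genotype set the fMLP arrays against the 2 unstimulated arrays of set 2. The log2 difference of Lcn2, knockout minus wild type, was -5.14 after fMLP (SE 0.41) and -5.39 without it (SE 0.33). Neutrophil markers were high throughout, with a mean log2 signal over 13 of them of 12.83 to 13.48 on fMLP arrays and 12.32 to 13.54 on unstimulated arrays. Replicate 2 of the fMLP knockout cells stood apart, with a mean of 11.01 over 8 neuron genes against 7.34 to 8.13 on the other 9 arrays. Results that rest on it are therefore given with and without it. The sex-linked genes Xist and Eif2s3y did not follow the label of female mice on every array, and departed from it on unstimulated arrays. Xist was 9.83 to 11.12 on fMLP arrays and 6.88 to 7.82 on unstimulated arrays. The Y-linked gene Eif2s3y read 9.59 (knockout) and 9.83 (wild type) on unstimulated replicate 3, with 5.36 to 7.22 elsewhere. The 2 unstimulated arrays of set 2, against which the fMLP arrays were set, were thus the 2 with the lowest Xist and the highest Eif2s3y signal, while the 4 fMLP arrays had the highest Xist signal. In every fMLP difference below, fMLP and the sex or origin of the cells cannot be told apart.

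Cd14 was higher on every fMLP array than on every unstimulated array of either set. Its log2 signal was 10.71 and 10.23 in knockout cells after fMLP and 10.71 and 11.44 in wild type cells after fMLP. It was 8.66, 8.48 and 8.43 in unstimulated knockout cells and 8.53, 8.51 and 8.52 in unstimulated wild type cells. The lowest fMLP value, on the array with neuron signal, still lay above the highest unstimulated value, and the 6 unstimulated arrays were nearly level across both sets. The mean was 10.77 ± 0.50 (SD, n = 4) after fMLP and 8.48 ± 0.07 (SD, n = 2) on the unstimulated arrays of set 2. Cd14 rose by 2.30 on the log2 scale (SE 0.21, 95% interval 1.81 to 2.78, limma adjusted p = 0.00765), a fold of 4.92. Ranked within each array, Cd14 reached percentile 88.1 to 94.5 of the probe sets on fMLP arrays, against 54.6 to 61.2 on unstimulated arrays.

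**Figure D1:**
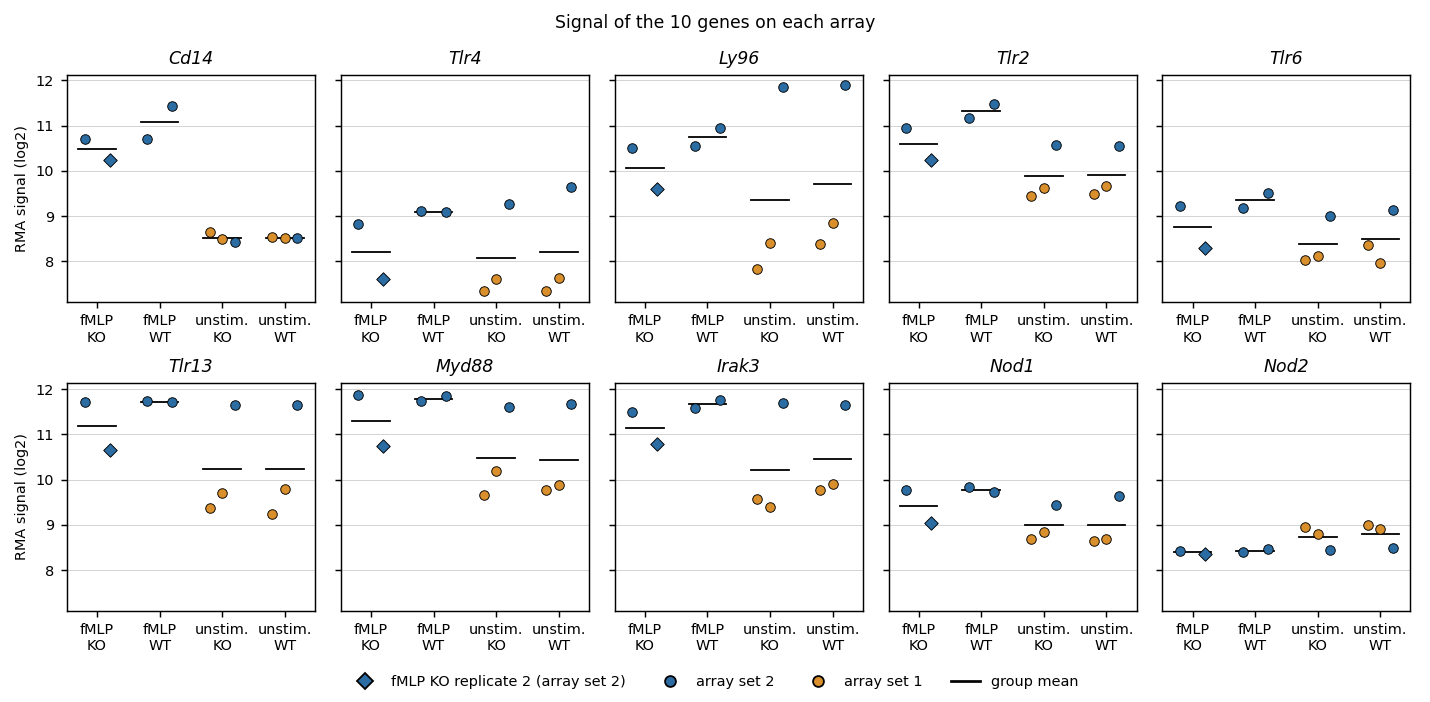
RMA signal (log2, y axis) of each of the 10 genes on each array, by group (x axis), with blue points for array set 2, orange for set 1, a diamond for fMLP knockout replicate 2 and a line for the group mean. Cd14 is the gene whose fMLP points all lie above its unstimulated points of both sets, while Ly96 and Tlr4 are highest on the unstimulated arrays of set 2.

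Averaged over genotype, Cd14 was the 1 member of 10 that passed, higher after fMLP, while 0 passed as lower. Over all 15342 probe sets tested, 0.143% were called higher and 0.183% lower. The median over the 10 members was -0.07 on the log2 scale, beside -0.02 over all probe sets tested. With fMLP knockout replicate 2 left out, which leaves 1 array in its group, assumed to vary like the other groups, 2 members were called higher (Cd14 and Tlr2) and 1 lower (Ly96), where 5.81% of probe sets were called higher and 3.7% lower. When replicate 1 of that group was left out instead, 4 members were called, where 28.4% of probe sets were called in either direction. All 10 members passed the filter on dim probe sets, Tlr4 with 5, Tlr6 with 7, Ly96 with 9 and the others with all 10 arrays above it.

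The Cd14 call depended on the arrays fitted. It was lost without unstimulated replicate 3 of the knockout (2.22, adjusted p = 0.364) or of the wild type (2.37, adjusted p = 0.324), and when only the 6 arrays of set 2 were fitted (2.30, adjusted p = 0.677). In each of these fits 0% of all probe sets were called, so the loss was not particular to Cd14. The difference itself was above 0 in 23 of 23 other settings, at 1.94 to 2.48, and was called in 20 of them. Those 20 include a replicate block that sets the fMLP arrays against set 1 and called 83.7% of all probe sets. They also include fits that leave 1 array in a group. As every fMLP value lay above every unstimulated value, leaving out arrays or changing the filter or variance model could not turn that sign. Unlike most partners, Cd14 differed little between the sets without stimulation: set 2 minus set 1 was -0.07. Without an array set term Cd14 was 2.25 and again the 1 member called, where 0.0587% of probe sets were called higher.

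Ly96, which encodes the lipopolysaccharide-binding partner of TLR4, had the lowest log2 difference of the 10. Its log2 signal was 10.51 and 9.61 in knockout cells after fMLP and 10.54 and 10.95 in wild type cells after fMLP. It was 7.82, 8.40 and 11.85 in unstimulated knockout cells and 8.39, 8.85 and 11.90 in unstimulated wild type cells. All 4 fMLP arrays were thus below the unstimulated arrays of set 2 and above those of set 1. The difference within set 2 was -1.47 (SE 0.29, adjusted p = 0.0963), and it was called without fMLP knockout replicate 2, where Ly96 fell by 1.25 on the log2 scale (SE 0.21, adjusted p = 0.00802). Without stimulation set 2 exceeded set 1 by 3.51, and with no array set term the fMLP difference turned to 0.87 (adjusted p = 0.451), so its direction depends on the arrays compared.

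Tlr4, the signalling receptor for lipopolysaccharide, followed the same order of arrays. Its log2 signal was 8.82 and 7.62 in knockout cells after fMLP and 9.11 and 9.09 in wild type cells after fMLP. It was 7.33, 7.60 and 9.26 in unstimulated knockout cells and 7.34, 7.64 and 9.64 in unstimulated wild type cells. The fMLP arrays lay below the unstimulated arrays of set 2, and 3 of the 4 lay above all arrays of set 1. The difference of -0.79 (SE 0.29, adjusted p = 0.257) did not pass, nor did that of -0.49 without fMLP knockout replicate 2 (SE 0.14, adjusted p = 0.0508), and it was 0.52 without an array set term.

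Monocyte genes moved with Ly96 and Tlr4 on these arrays. The mean log2 signal of 10 monocyte and macrophage markers was 8.58 to 9.53 on fMLP arrays. It was 10.20 (knockout) and 10.60 (wild type) on unstimulated replicate 3, in set 2, and 8.51 to 8.71 in set 1. Of the 10, 3 fell and 0 rose after fMLP: the chemokine receptor gene Ccr2 (-2.08), the matrix gene Fn1 (-2.12) and F13a1 (-1.74), a subunit of a clotting factor. Over all probe sets 0.183% were called lower. Leaving out fMLP knockout replicate 2, the median difference of the 10 was -0.80, with 9 below 0 and 1 above it. Eosinophil, basophil and mast cell markers had a mean of 7.65 to 8.30 on fMLP arrays. It was 9.63 and 9.72 on the unstimulated knockout and wild type arrays of set 2, and 8.34 to 8.58 in set 1. With all arrays 6 of 8 tested fell. Dendritic cell markers had a mean of 7.58 to 7.78 on fMLP arrays. It was 8.08 and 8.14 on those unstimulated arrays, and 8.30 to 8.44 in set 1. Unlike Ly96, both of these lists read lower on fMLP arrays than in set 1, but the sets differ in scale. The 8 neuron genes, too, read 7.98 to 8.13 in set 1 and 7.46 to 7.55 on the unstimulated arrays of set 2. Levels compared between sets therefore cannot tell these lists apart from Ly96.

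Markers of lymphocytes were not lower on all fMLP arrays than on the unstimulated arrays of set 2. The mean of T and NK cell markers was 8.14 to 9.14 on fMLP arrays, against 8.21 and 8.04 on the unstimulated knockout and wild type arrays of set 2. Of 4 tested, 0 were called with all arrays, where 0.143% of probe sets were called higher and 0.183% lower. Their median difference was 1.03, with 3 above 0 and 1, Nkg7, below it at -0.51. Without fMLP knockout replicate 2 the median was 1.22, in a range of -0.25 to 1.69, again with 3 above 0 and 1 below it. B cell markers had a mean of 9.89 to 10.82 on fMLP arrays, against 10.78 and 10.42 on those unstimulated arrays. Of 7 tested, 0 were called with all arrays. Without fMLP knockout replicate 2 their differences ran from -2.10 to 1.05, with 4 above 0, 3 below it and a median of 0.53. Markers of other cells thus differed in both directions between the arrays compared. The part of these cells in the Cd14, Ly96 and Tlr4 differences was not tested, and in such bulk samples fewer cells of a type and less RNA per cell cannot be told apart.

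**Figure D2:**
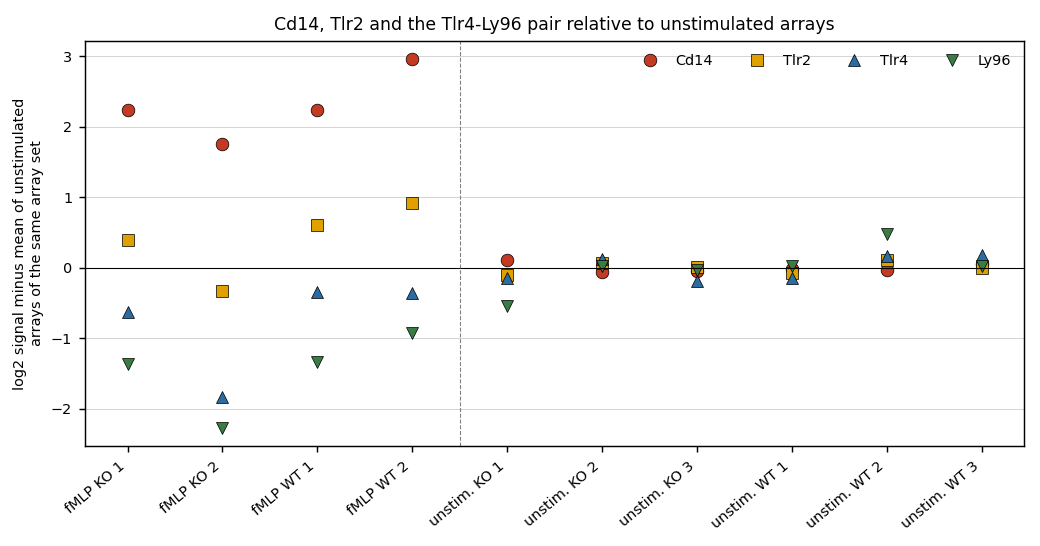
Log2 signal of Cd14, Tlr2, Tlr4 and Ly96 on each array (x axis) minus the mean of the unstimulated arrays of the same array set (y axis). On the 4 fMLP arrays, left of the dashed line, Cd14 lies above 0 and Tlr4 and Ly96 below it, while Tlr2 lies above 0 on 3 arrays and below it on fMLP knockout replicate 2.

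Tlr2, the receptor for bacterial lipoproteins, was the partner that came nearest to Cd14. Its log2 signal was 10.95 and 10.23 in knockout cells after fMLP and 11.17 and 11.48 in wild type cells after fMLP. It was 9.45, 9.63 and 10.56 in unstimulated knockout cells and 9.48, 9.67 and 10.55 in unstimulated wild type cells. On 3 fMLP arrays it lay above all unstimulated arrays, and on fMLP knockout replicate 2 it lay below those of set 2. The difference was 0.40 with all arrays (SE 0.20, adjusted p = 0.392), and Tlr2 rose by 0.58 without that array (SE 0.12, adjusted p = 0.0184), a fold of 1.495.

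Tlr6, which pairs with TLR2 for some lipoproteins, did not pass. Its log2 signal was 9.23 and 8.29 in knockout cells after fMLP and 9.19 and 9.51 in wild type cells after fMLP, against 8.997 in knockout and 9.13 in wild type cells on the unstimulated arrays of set 2. Its difference was -0.01 (95% interval -0.57 to 0.55), and 0.22 without fMLP knockout replicate 2. Tlr13, a sensor of bacterial ribosomal RNA inside the mouse cell, had 11.71 and 10.65 in knockout cells after fMLP and 11.74 and 11.71 in wild type cells after fMLP, against 11.64 in knockout and 11.66 in wild type cells on the unstimulated arrays of set 2. Apart from the array with neuron signal, its fMLP values were 0.05 to 0.08 above the unstimulated value of the same genotype. Its difference was -0.20 (95% interval -0.85 to 0.45), and 0.07 without that array.

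Myd88, the shared adaptor, had a log2 signal of 11.86 and 10.75 in knockout cells after fMLP and 11.74 and 11.84 in wild type cells after fMLP, against 11.60 in knockout and 11.67 in wild type cells on the unstimulated arrays of set 2. Irak3, the inhibitory kinase-like protein, had 11.50 and 10.78 in knockout cells after fMLP and 11.59 and 11.75 in wild type cells after fMLP, against 11.70 in knockout and 11.65 in wild type cells on those unstimulated arrays. Both genes were lowest within set 2 on fMLP knockout replicate 2. Their differences were -0.09 (95% interval -0.73 to 0.56) for Myd88 and -0.27 (95% interval -0.73 to 0.19) for Irak3, and neither passed with or without that array.

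Nod1, the cytosolic sensor of a peptide from mostly Gram-negative cell walls, had 9.77 and 9.05 in knockout cells after fMLP and 9.83 and 9.73 in wild type cells after fMLP, against 9.44 and 9.65 on the unstimulated knockout and wild type arrays of set 2. Its difference was 0.05 (95% interval -0.38 to 0.48). Nod2, the sensor of muramyl dipeptide, was the most even of the 10 on set 2. It had 8.43 and 8.35 in knockout cells after fMLP and 8.39 and 8.47 in wild type cells after fMLP, against 8.44 and 8.48 on the unstimulated knockout and wild type arrays of that set. Its difference was -0.05 (95% interval -0.27 to 0.17).

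**Figure D3:**
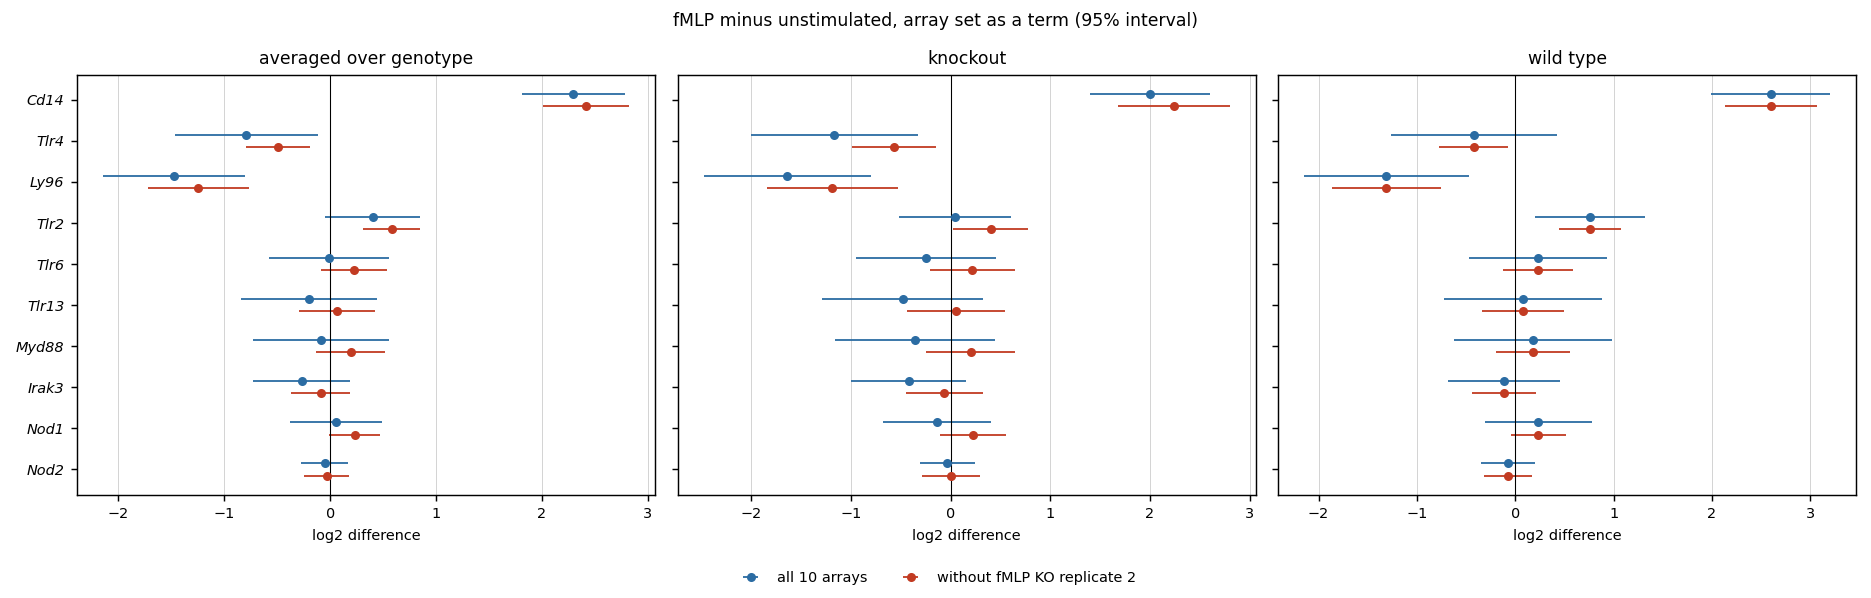
Log2 difference, fMLP minus unstimulated (x axis), of the 10 genes (rows), averaged over genotype, in knockout and in wild type cells; points are limma estimates with 95% intervals, in blue for all 10 arrays and in red without fMLP knockout replicate 2. Cd14 stands apart at 2.30 averaged over genotype, Ly96 lies at -1.47, and the other 8 lie between -0.79 and 0.40.

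Read by overlap of single arrays within set 2, Cd14 was the 1 member with all 4 fMLP arrays above both unstimulated arrays, an order that 11.8% of all probe sets showed. Ly96 and Tlr4 were the 2 members with all 4 below, an order that 20.8% showed. Without fMLP knockout replicate 2, 6 members lay above on the 3 remaining fMLP arrays (Cd14, Tlr2, Tlr6, Tlr13, Myd88 and Nod1), beside 26.8% of all probe sets, and the same 2 lay below, beside 29.2%. For Tlr13 and Myd88 that order holds differences of 0.07 and 0.19.

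In each genotype by itself Cd14 had the largest difference of the 10. These single-genotype differences also draw on set 1, since the set term is estimated over both genotypes. In knockout cells it was 2.00 (SE 0.26, adjusted p = 0.0561), which did not pass, and 0 members were called, beside 0.0521% of probe sets called in either direction. In wild type cells Cd14 rose by 2.60 (SE 0.26, adjusted p = 0.0214), the 1 member called, beside 0.0391% of probe sets called higher. That call was lost without any 1 of the 6 unstimulated arrays (2.55 to 2.70, adjusted p = 0.107 to 0.999) or without fMLP wild type replicate 2 (2.24, adjusted p = 0.0706). In these fits 0% to 0.0332% of all probe sets were called in either direction. Without fMLP knockout replicate 2, Cd14 was the 1 member called in knockout cells (2.24, SE 0.25, adjusted p = 0.00321), where 2.09% of all probe sets were called in either direction. That fit has 1 fMLP knockout array, so its error comes from the spread of the other groups. Wild type cells then had 3 members called, where 4.62% of all probe sets were called. Cd14 (2.60) and Tlr2 (0.76, adjusted p = 0.0182) rose and Ly96 fell by 1.31 (adjusted p = 0.0201).

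Whether the genotypes differ in the response was tested by the interaction. It called 0 members, as it called 0% of all probe sets, and 1 member had an unadjusted p under 0.05 (Tlr2, at -0.72), beside 1.8% of all probe sets. For Cd14 the difference of responses, knockout minus wild type, was -0.60 (95% interval -1.32 to 0.12), and -0.36 (95% interval -0.999 to 0.28) without fMLP knockout replicate 2. Without fMLP knockout replicate 1, which leaves the array with neuron signal alone in its group, 8 members were called, where 33.7% of all probe sets were called. The intervals leave room for a smaller response of Cd14 in the knockout of up to 1.32 on the log2 scale.

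Cd14 was next set against each partner on the same array, so that the change in their ratio was tested. The ratio rose for 9 of 9 partners, but it did so for 98.4% of all probe sets, so this says that Cd14 rose, and nothing particular about its partners. The Cd14 rise exceeded that of Tlr2 by 1.90 (SE 0.18, adjusted p = 0.000547 in a gene-wise linear model fitted across all probe sets). It exceeded the change of Tlr4 by 3.09 (SE 0.33, adjusted p = 0.000557) and that of Ly96 by 3.77 (SE 0.31, adjusted p = 0.000547). For the other 6 partners the excess was 2.25 to 2.57. Without fMLP knockout replicate 2 the excess was 1.84 for Tlr2, 2.91 for Tlr4 and 3.67 for Ly96. The moderated version of this test called 99.9% of all probe sets, and its p-values are not given because every ratio shares the Cd14 values.

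The genes whose pattern over the 10 arrays was most like that of Cd14 were transcription factor genes of the immediate early response. Likeness was the root mean square difference from Cd14 of the value minus the unstimulated mean of the same array set. It was 0.13 on the log2 scale for Atf3, 0.16 for Egr2, 0.18 for Fosl1, and 0.22 for both Nr4a1 and Fosb. Among the members the nearest was Tlr2 at 1.21 and the farthest Ly96 at 2.40. On single arrays Atf3 had 11.31 and 10.74 in knockout cells after fMLP and 11.01 and 12.04 in wild type cells after fMLP, with the same array highest as for Cd14. It had 8.79 to 9.28 on the 6 unstimulated arrays. Atf3 was picked by its likeness to Cd14 on these same arrays, so these values are no separate evidence of it.

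Without stimulation, loss of Lcn2 went with no called change in any of the 10 genes. The knockout minus wild type difference was 0.00 for Cd14 (95% interval -0.45 to 0.46), and it spanned -0.36 for Ly96 to 0.05 for Myd88. By limma, 0 of 10 members were called and 0 had an unadjusted p under 0.05, beside 0.00652% of all probe sets called (1, which is Lcn2) and 0.502% with an unadjusted p under 0.05. Within set 1 the Cd14 difference was 0.05 and within set 2 it was -0.10. Those for Ly96 were -0.51 and -0.05, and those for Tlr4 were -0.02 and -0.37.

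After fMLP all 10 members had lower mean signals in knockout than in wild type cells, and none passed. How many of all probe sets were lower was not counted. Without fMLP knockout replicate 2, Myd88 turned to 0.07. Tlr13 and Nod1 were then at -0.01 and Nod2 at -0.001, and the other members stayed further below 0. The mean of Cd14 was 10.47 ± 0.34 (SD, n = 2) in knockout and 11.07 ± 0.51 (SD, n = 2) in wild type cells, a difference of -0.60 (95% interval -1.16 to -0.04, limma adjusted p = 0.422). Limma called 0 of 10, beside 0.00652% of all probe sets, and 3 had an unadjusted p under 0.05 (Cd14, Tlr2 at -0.73 and Tlr4 at -0.88), beside 8.36% of all probe sets. Without fMLP knockout replicate 2 the differences of Cd14, Tlr2 and Tlr4 were -0.36, -0.38 and -0.28, and 1 had an unadjusted p under 0.05 (Tlr2), with 1 knockout array left and assumed to vary like the other groups. When replicate 1 of that group was left out instead, the limma count was 9 of 10, where 44.6% of all probe sets were called, again with 1 knockout array left.

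**Figure D4:**
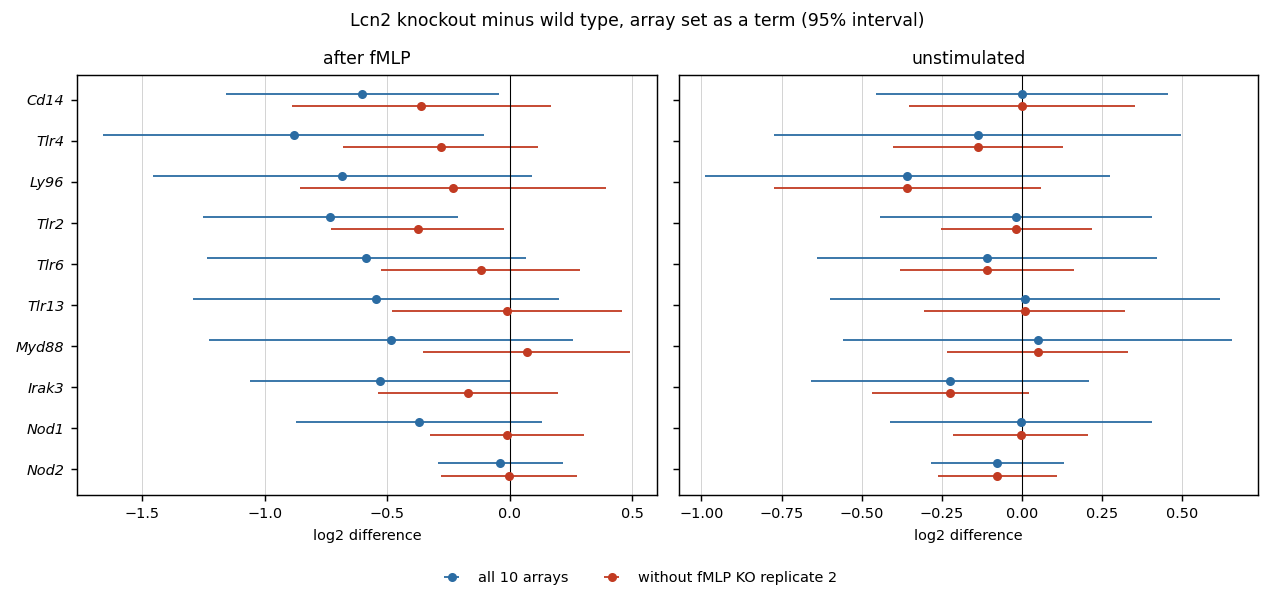
Log2 difference, Lcn2 knockout minus wild type (x axis), of the 10 genes (rows) after fMLP and without stimulation; points are limma estimates with 95% intervals, in blue for all 10 arrays and in red without fMLP knockout replicate 2. After fMLP the blue points run from -0.88 for Tlr4 to -0.04 for Nod2, and the red points lie nearer to 0.

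The other genes of the pathway were taken as lists drawn up by role. With all arrays, 0 genes of the 7 pathway lists were called in the fMLP difference averaged over genotype, so the counts below are without fMLP knockout replicate 2, beside the 5.81% of all probe sets called higher and 3.7% called lower there. Of 5 other Toll-like receptors tested, 0 rose and 1 fell. It was Tlr8, a sensor of single-stranded RNA, at -0.80 (SE 0.11, adjusted p = 0.00308), and -1.09 with all arrays (adjusted p = 0.137). Tlr7, its relative, was at -0.32 and did not pass. The list median was -0.09, beside -0.01 over all probe sets tested.

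Of 8 accessory proteins tested, 1 rose, Scimp (0.51, adjusted p = 0.0132), a membrane adaptor of Toll-like receptors, and 0 fell. Ly86, the partner of the receptor-like protein CD180, was at -0.28 and Cnpy3, a chaperone of Toll-like receptors, at 0.18, and neither passed. Of 19 adaptors and kinases, 2 rose and 0 fell. They were Irf7, a transcription factor of interferon genes (0.86, adjusted p = 0.00862), and Irak2, a kinase-like protein bound to MyD88 (0.41, adjusted p = 0.0460), the second named after its value was seen. Tbk1, a kinase upstream of interferon genes, was at -0.31 and Tab1, a subunit of the TAK1 kinase complex, at 0.14, and neither passed.

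Inhibitors of the pathway had 4 of 10 members higher and 0 lower. Tnfaip3, which encodes the ubiquitin-editing protein A20, rose by 1.54 (SE 0.09, adjusted p = 4.12e-05), Dusp1, a MAP kinase phosphatase, by 1.36 (adjusted p = 0.0224), and Tollip by 0.47 (adjusted p = 0.0182). Zc3h12a, an RNase that cleaves cytokine mRNA, rose by 0.40 (adjusted p = 0.0349) and was named after its value was seen. With all arrays Tnfaip3 was at 1.28 (adjusted p = 0.0939) and Dusp1 at 1.29 (adjusted p = 0.130).

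Cytosolic sensors and their partners had 0 of 15 higher and 2 lower. Both encode parts of the inflammasome: its adaptor Pycard fell by 0.42 on the log2 scale (adjusted p = 0.0216) and the protease gene Casp1 by 0.37 (adjusted p = 0.0403). Naip2, a sensor of bacterial secretion systems, was at -0.26 and did not pass. Among 5 lectins and peptidoglycan recognition genes, 1 rose and 0 fell: Clec4n, which encodes the fungal receptor dectin-2, at 1.76 (SE 0.22, adjusted p = 0.00191), and 1.42 with all arrays (adjusted p = 0.143). Clec4e was at 0.45 and Pglyrp1 at -0.09, and neither passed.

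Early target genes of the pathway had 7 of 16 members higher and 0 lower, with a list median of 0.68 beside -0.01 over all probe sets. Acod1, which encodes the enzyme that makes itaconate, rose by 2.16 (SE 0.26, adjusted p = 0.00190), the NF-kB regulator gene Nfkbid by 1.70 (SE 0.18, adjusted p = 0.00104) and the chemokine gene Ccl4 by 0.92 (SE 0.14, adjusted p = 0.00470). With all arrays these 3 were at 1.99, 1.51 and 0.86, with adjusted p = 0.0507, 0.0542 and 0.0685.

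**Figure D5:**
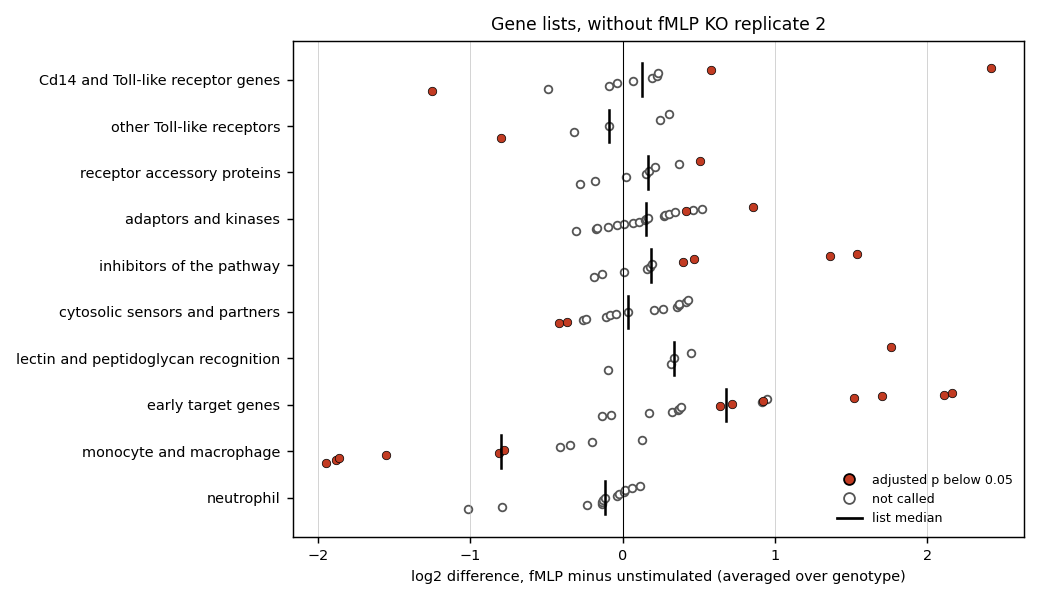
Log2 difference, fMLP minus unstimulated, averaged over genotype and without fMLP knockout replicate 2 (x axis), of each tested gene of the 10 members, the 7 pathway lists and the monocyte and neutrophil marker lists (rows). Filled red points have an adjusted p under 0.05, open points do not, and black bars are list medians; the early target list has a median of 0.68 and the monocyte and macrophage list one of -0.80.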

How the data were processed

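Labelled RNA of 10 mouse samples was hybridised to 1 Affymetrix array each. The authors computed log2 signals by RMA with Affymetrix Expression Console before they deposited them, per the submitters' processing notes. The base of the logarithm is inferred from the range of the values, as it is not given in the sources used here. RMA corrects background, normalizes the arrays of a run to one distribution and summarises probes. Whether all arrays were run together is not given. Arrays have no read depth, so their number limits the precision.

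Of 35556 probe sets, 21789 name 1 gene, 1621 several and 12146 none. Probe sets of 1 gene with at least 2 arrays above 8.18, the median of all values, were tested (15342). All 10 arrays were fitted with limma 3.58.1 (R 4.3.3, statmod 1.5.0), with a coefficient per group and array set as a term, at an interquartile range below or above 2. Tests were two-sided, adjusted by Benjamini-Hochberg over all probe sets tested and called under 0.05. The fit was tested on simulated data. The change of Cd14 relative to each partner used gene-wise variances, chosen after the moderated fit was seen to share the Cd14 values.

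The members, lists, array set term and alternatives were chosen with earlier results of these data known. The text names all members, Lcn2, per pathway list the genes called with all arrays and otherwise up to 3 with the smallest p, and the 5 genes most like Cd14. Alternatives were no set term, only set 2, other normalizations, filters, probe set choices and variance models, array weights, the set as a random block, a replicate block, and leaving out each array.

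Same-numbered unstimulated arrays deviated together from their group means (correlations across probe sets of 0.93 to 0.99). In both genotypes replicates 1 and 2 lie in set 1 and replicate 3 in set 2. The difference between the sets thus enters these correlations, and they cannot show pairing. Within set 1 alone the replicate 1 minus 2 differences of the genotypes correlated at 0.50. The numbers were taken to pair the unstimulated knockout and wild type arrays, on which only that last value bears. The main fit held no pair term, so its unstimulated knockout minus wild type intervals leave this pairing out. In that comparison the replicate block, which holds it, changed no member's call. With 2 arrays per group the fMLP arrays give a single correlation (0.07), and it includes the array with neuron signal. It cannot decide whether they are pairs, and they were not taken as pairs.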

Additional observations from a re-analysis of the deposited data

How the results depend on the processing

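The gap between the fMLP and unstimulated values of Cd14 largely fixed the sign of its fMLP difference. Cd14 was above 0 in the fMLP difference of either genotype and of their average under all 23 alternatives. It was called in 20 of them averaged over genotype (1.94 to 2.48), 8 in knockout and 14 in wild type cells. Each count includes the replicate block, where 74.3% to 83.7% of all probe sets were called. Counts of called members moved more. Averaged over genotype the count was 0 with only set 2, 3 with array weights (5.86% of all probe sets called) and 4 with only set 2 without fMLP knockout replicate 2 (25.8%), an alternative added after the data were seen. For wild type cells it was 0 without a set term or with only set 2, 4 with array weights (27.2% of all probe sets) and 4 with only set 2 without that array (10.7%). For knockout cells it was 1 with quantile normalization within sets, a stricter filter, a variance trend or a random block (0.0847% to 0.193% of all probe sets), and 2 with only set 2 without that array (5.5%). Leaving out 1 array gave 0 to 4 called members averaged over genotype, 0 to 3 in wild type, 0 to 8 in knockout cells, 0 to 9 for knockout minus wild type after fMLP and 0 to 8 for the interaction. The high ends came without fMLP knockout replicate 1, which leaves the array with neuron signal as the 1 of its group, where 28.4%, 4.61%, 38%, 44.6% and 33.7% of all probe sets were called in those 5 comparisons. In wild type cells 3 were called without fMLP knockout replicate 2 too (4.62%). The wild type Cd14 call was lost without any 1 unstimulated array or without fMLP wild type replicate 2, where 0% to 0.0332% of all probe sets were called. Over all probe sets, 50 were called averaged over genotype, against 1451 without fMLP knockout replicate 2, 9 without a set term, 0 with only set 2 and 899 with array weights.

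With the replicate block, the fMLP arrays are set against set 1, so the difference holds that between the sets: 83.7%, 80.9% and 74.3% of all probe sets were called averaged over genotype, in wild type and in knockout cells, with 10, 10 and 9 members. The block changed no member's genotype call. Signs turned under it to 1.18 for Tlr4, 0.93 for Tlr6, 1.92 for Tlr13, 2.04 for Ly96, 1.68 for Myd88 and 1.74 for Irak3 averaged over genotype, to 1.55 for Tlr4, 2.20 for Ly96 and 1.89 for Irak3 in wild type, and to 0.81 for Tlr4, 0.69 for Tlr6, 1.64 for Tlr13, 1.87 for Ly96, 1.41 for Myd88, 1.59 for Irak3 and 0.70 for Nod1 in knockout cells. Without a set term the same genes turned, to 0.52 for Tlr4, 0.62 for Tlr6, 1.21 for Tlr13, 0.87 for Ly96, 1.09 for Myd88 and 1.07 for Irak3 averaged over genotype, 0.89 for Tlr4, 1.03 for Ly96 and 1.22 for Irak3 in wild type, and 0.15 for Tlr4, 0.38 for Tlr6, 0.94 for Tlr13, 0.70 for Ly96, 0.82 for Myd88, 0.92 for Irak3 and 0.42 for Nod1 in knockout cells.

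The other turns were of differences that were not called. Only set 2 gave 0.019 for Irak3 in wild type cells, and for unstimulated knockout minus wild type -0.097 for Cd14, 0.017 for Tlr2, -0.014 for Tlr13, -0.065 for Myd88 and 0.046 for Irak3. Without fMLP knockout replicate 2 it gave -0.097 for Cd14, 0.017 for Tlr2, -0.014 for Tlr13, -0.065 for Myd88 and 0.046 for Irak3 for that genotype comparison, with 0.22 for Tlr6, 0.066 for Tlr13 and 0.19 for Myd88 averaged over genotype, 0.018 for Irak3 in wild type, and 0.23 for Tlr6, 0.066 for Tlr13, 0.26 for Myd88 and 0.33 for Nod1 in knockout cells. Myd88 was then 0.070 for knockout minus wild type after fMLP, and the interaction 0.092 for Tlr4, 0.018 for Tlr6, 0.0011 for Tlr13, 0.14 for Myd88 and 0.20 for Nod1. Quantile normalization of all arrays gave 0.025 for Myd88 averaged over genotype, 0.0011 for Nod2 in knockout cells, 0.035 for Nod1 in unstimulated knockout minus wild type and 0.0025 for Ly96 in the interaction. Median centring gave 0.0009 for Tlr6 averaged over genotype, and -0.015 for Cd14 and -0.0073 for Tlr13 in unstimulated knockout minus wild type. Quantile normalization within sets gave 0.012 for Myd88 averaged over genotype and -0.016 for Cd14 in that genotype comparison. Array weights gave there -0.068 for Cd14, 0.0086 for Tlr2, -0.0026 for Tlr13 and -0.031 for Myd88. A random block gave 0.0098 for Tlr6 averaged over genotype.

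Leaving out 1 array in turn moved these across 0. Averaged over genotype the values ran from -0.36 to 0.19 for Myd88, -0.13 to 0.23 for Nod1, -0.47 to 0.066 for Tlr13 and -0.24 to 0.22 for Tlr6. Wild type values ran from -0.39 to 0.019 for Irak3 and -0.0044 to 0.15 for Tlr13. Knockout values ran from -0.91 to 0.20 for Myd88, -0.49 to 0.23 for Nod1, -0.069 to 0.0039 for Nod2, -1.01 to 0.055 for Tlr13, -0.31 to 0.40 for Tlr2 and -0.72 to 0.22 for Tlr6. Unstimulated knockout minus wild type ran from -0.063 to 0.050 for Cd14, -0.11 to 0.18 for Myd88, -0.078 to 0.10 for Nod1, -0.15 to 0.17 for Tlr13, -0.065 to 0.041 for Tlr2 and -0.23 to 0.0016 for Tlr6. Knockout minus wild type after fMLP ran from -1.04 to 0.070 for Myd88 and -0.076 to 0.0007 for Nod2. The interaction ran from -0.66 to 0.055 for Irak3, -0.78 to 0.13 for Ly96, -1.09 to 0.021 for Myd88 and -0.011 to 0.080 for Nod2. The causes of these turns were not tested, beyond the change of arrays compared.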
